A study of Rattus norvegicus with 6 samples.

Results

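The insulin-like growth factor (IGF) family was followed here in cultured synovial fibroblast-like cells through 10 genes. These were the ligands Igf1 and Igf2, the receptors Igf1r and Igf2r, and the binding proteins Igfbp2, Igfbp3, Igfbp4, Igfbp5, Igfbp6 and Igfbp7. The members were chosen by their symbols in the deposited transcript table, out of 16499 symbols in all, with the most abundant row standing for a gene that has several. Of the 10 members, 8 were expressed highly enough to be tested for a difference between sera (at least 1 CPM, the read count scaled to library size, in both libraries of at least 1 group). Igf1 and Igf2 were not.

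The cells, called RASFLs by the study, were cultured from the synovium, the lining of the joints, of female Wistar rats with collagen-induced arthritis, a rat model of rheumatoid arthritis, and kept by their adherence to plastic. The labels tag 1 library of each of the 3 serological settings RA1 and the other RA2, which gives 6 libraries and 2 per group. The tag is read here as the rat that supplied the cells, called rat 1 and rat 2 below, although no source used here says so outright. The medium held fetal bovine serum (FBS), blood serum of untreated animals (MS−), or blood serum of animals on day 18 of mechanical stimulation by needle (MS+), which the labels call acupuncture. The question of the experiment was what serum of stimulated animals does to the cells of the target joint, with MS− and FBS as the controls. All cells came from arthritic rats sampled before any therapy, so only the serum differed between the groups. Ages were not given in the sources used here. Neither was the number of animals behind each serum, so a replicate is a source of cells and not a serum donor. The sources conflict on MS−: its rats are healthy in a description but arthritic in the disease field, and accounts of when this serum was drawn differ.

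IGF1 and IGF2 are secreted peptides that bind the IGF1 receptor, a tyrosine kinase that signals through insulin receptor substrates, PI3 kinase and AKT towards growth and survival. The IGF2 receptor lacks a kinase and removes IGF2 into lysosomes. The binding proteins hold the ligands in serum and tissue, and proteases that cut them set the ligands free, of which PAPPA is the best known for IGFBP4. In joints, IGF1 is known as a signal for cartilage matrix synthesis, and serum itself carries IGFs and binding proteins, while RNA-seq of the cells measures what the cells themselves transcribe.

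The 2 members with the widest differences between sera were Igfbp4 and Igfbp5, and their proximal promoters are shown for that reason. Each is the 250 bases before the start of the gene in RefSeq on the GRCr8 assembly, 5′ to 3′ on the strand of the gene. Igfbp4 lies at chr10:84491221-84491470 on the plus strand, with the motif TATAAA in capitals. Igfbp5 lies at chr9:81914188-81914437 on the minus strand, and has no capitals because none of the motifs searched was found.
Igfbp4: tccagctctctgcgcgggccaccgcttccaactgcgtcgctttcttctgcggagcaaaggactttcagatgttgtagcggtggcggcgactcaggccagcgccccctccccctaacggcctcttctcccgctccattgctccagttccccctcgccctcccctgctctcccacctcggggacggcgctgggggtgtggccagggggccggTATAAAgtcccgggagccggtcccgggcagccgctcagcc
Igfbp5: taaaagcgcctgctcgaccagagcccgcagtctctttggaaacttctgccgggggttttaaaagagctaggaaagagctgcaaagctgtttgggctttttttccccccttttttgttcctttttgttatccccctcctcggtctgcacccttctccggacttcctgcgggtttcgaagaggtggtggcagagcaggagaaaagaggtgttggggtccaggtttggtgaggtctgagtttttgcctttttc
The motifs searched, on both strands, were TATAAA (the TATA box), CCAAT (the CCAAT box), GGGCGG (the GC box), TGACTCA (the AP-1 site), and GTAAACA and CAAAACA (forkhead sites), none of which contains another. In Igfbp4, TATAAA began 40 bases before the start of the gene, and 12.9% of 33469 promoter windows held it. The GC content was 68.8% for Igfbp4 and 51.6% for Igfbp5, against a median of 51.2% over all windows. Among the other members, GGGCGG was found in Igf1r, Igf2, Igf2r, Igfbp2 and Igfbp7 (30.5% of all windows). CAAAACA was found in Igf1 (5.46%) and GTAAACA in Igfbp6 (3.21%), while CCAAT (34%) and TGACTCA (4.05%) were found in no member window. Windows were at hand for 10 of 10 members. A match is a description of the letters, not a site shown to be bound.

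The libraries held 5463316 to 5991889 reads, and 1 read was worth 0.164 to 0.184 CPM. A count of 3 reads in a library, taken as the floor of detection, was 0.491 to 0.551 CPM, and this covers counting error only. The fibroblast label was set against marker genes. The 9 of 9 fibroblast markers in the table summed to 62829 to 88027 CPM per library, with the lowest sums in MS− (62829 and 65437 CPM) and the highest in FBS. Of 7 macrophage markers in the table, 4 were at 0 reads in every library (Ptprc, Aif1, Itgam and Lyz2). The row of Itgam overlaps no other. Those of Ptprc, Aif1 and Lyz2 overlap other rows, where shared reads were not counted, so their 0 reads cannot be read as absence. The list summed to 13.8 to 20.5 CPM, mostly from Cd14 at 12.1 to 19.4 CPM. Endothelial markers summed to 0.181 to 1.47 CPM with Cdh5 and Tie1 at 0. Skeletal muscle markers summed to 981 to 1267 CPM, with Myl1 and Pax7 at 0. The rows of Myl1 overlap each other, so its value cannot be read as absence either. These fibroblast sums were carried by Col1a1 and Col1a2, which with Col3a1 were lowest in MS−. Thy1 and Cdh11 were also lowest in MS− within each rat. Vim, however, was at 11486 and 11981 CPM in FBS and 12544 and 14340 CPM in MS−, and Pdgfrb at 2335 and 2362 CPM in FBS and 2500 and 2518 CPM in MS−. Pdgfra was lowest in FBS in rat 1 and in MS− in rat 2. Prg4, from the same list, was low in every library, at 1.27 to 3.32 CPM. Its row overlaps a row of another symbol, so this level is uncertain. The chondrocyte sum was that of Acan, at 1453 and 1827 CPM in MS− and 2538 to 3012 CPM in the other 4 libraries, since Col2a1 and Col9a1 were at or near 0. The part of these genes in the results below was not tested.

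Igf1 was listed at 0 reads in all 6 libraries on each of its 4 rows. Igf2 had 3 rows, and its most abundant one (NM_031511) held 1 read in each MS− library and in the first MS+ library, with 0 reads in the others. These values cannot be read as absence of the ligands. The counting method assigned reads to single transcripts and dropped those shared by overlapping ones, and the rows of both genes overlap each other over most of their spans (chr7:24531669-24605742 for Igf1 and chr1:202906623-202916730 for Igf2, build rn4). Among 294 rows of the table that overlap at least 2 rows of the same symbol, 65.6% were at 0 reads in every library, against 25% of the 14973 rows that overlap no other row. Transcription of the ligands by these cells was therefore not measurable here.

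Both receptors were expressed in every library. Igf1r, the signalling receptor (NM_052807, chr1:122704974-122990002 in rn4), stood at 160 and 174 CPM in FBS, 165 and 189 CPM in MS−, and 211 and 213 CPM in MS+, for rat 1 and rat 2 in that order. Both MS+ libraries lay above the other 4, and FBS and MS− overlapped. The mean in MS+ was 212 ± 1.10 CPM (SD, n = 2), 1.27 times that in FBS (167 ± 9.31 CPM) and 1.19 times that in MS− (177 ± 17.0 CPM).

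The test was limma across 9820 features on log2(CPM + 1), two-sided, with Benjamini-Hochberg adjustment, and differences are on that log2 scale throughout. In the fit with serum as the only term, Igf1r differed by 0.34 between MS+ and FBS (SE 0.10, adjusted p = 0.0837), which did not pass the threshold of 0.05. Because the tags RA1 and RA2 recur in every group, the fit was also run with the rat as a block, and there Igf1r rose in MS+ against FBS (adjusted p = 0.00711). Without the first MS+ library the blocked adjusted p was 0.0596. Between MS+ and MS− the difference was 0.26 and passed in neither fit (adjusted p = 0.311, and 0.0660 with the block). FBS and MS−, neighbours in the order of levels, differed by 0.08 with a 95% interval of −0.16 to 0.32.

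Igf2r, which clears IGF2 (NM_012756, chr1:42253273-42341646 in rn4), was measured at 357 and 458 CPM in FBS, 404 and 521 CPM in MS−, and 420 and 548 CPM in MS+. The cells of rat 2 were higher in each serum, so the groups overlapped, while within each rat the order was FBS, MS−, MS+. The difference between MS+ and FBS was 0.25 (SE 0.19, adjusted p = 0.456). With the rat as a block it passed (adjusted p = 0.0268), and leaving out any 1 of the 6 libraries brought the blocked adjusted p to between 0.0687 and 0.0998. No other comparison of Igf2r passed in either fit.

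**Figure D1:**
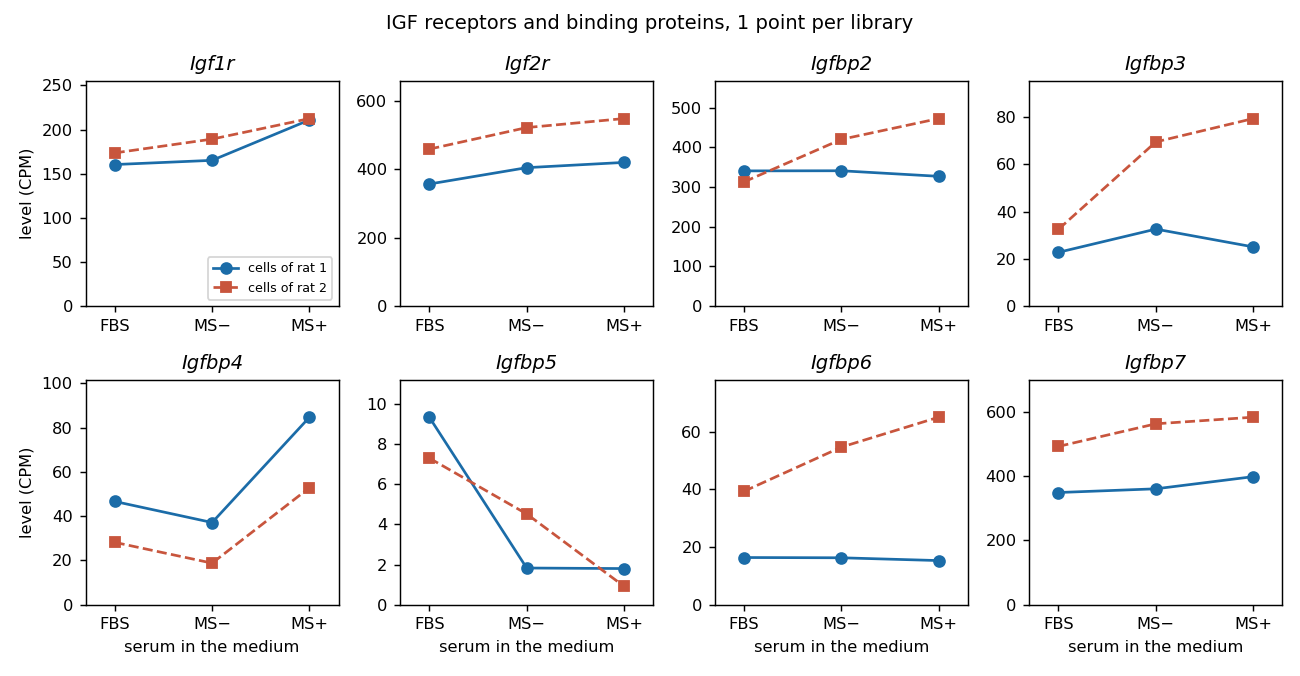
Level (CPM, linear axes from 0, a different scale in each panel) of the 8 tested members in the 3 sera, 1 point per library, with lines joining the cells of the same rat. Igfbp4 dips in MS− and peaks in MS+ in both rats, Igfbp5 is highest in FBS in both, and the lines of the rats stand apart for Igf2r, Igfbp6 and Igfbp7.

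Igfbp4, a binding protein known mainly for holding IGFs away from their receptor (NM_001004274, chr10:87822429-87834315 in rn4), showed the widest difference between MS+ and MS− among the members. It was measured at 37.1 and 18.8 CPM in MS−, 46.7 and 28.2 CPM in FBS, and 84.7 and 52.9 CPM in MS+. Each MS+ library lay above every library of the other groups, while MS− and FBS overlapped because rat 1 was higher than rat 2 in every serum. Within each rat the order was MS−, FBS, MS+.

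The mean of Igfbp4 in MS+ was 68.8 ± 22.5 CPM, 2.46 times that in MS− (28.0 ± 13.0 CPM) and 1.84 times that in FBS (37.4 ± 13.1 CPM). The ratio of MS+ to MS− was 2.28 in rat 1 and 2.81 in rat 2. With serum as the only term, limma gave a difference of 1.31 between MS+ and MS− (SE 0.38, unadjusted p = 0.0113, adjusted p = 0.214). With the rat as a block the SE was 0.12, the 95% interval was 1.05 to 1.56, and Igfbp4 rose (adjusted p = 1.46e-05). This call held without any 1 library, with a highest blocked adjusted p of 0.00348.

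The same pair of fits gave 0.87 between MS+ and FBS (adjusted p = 0.197, and 7.26e-05 with the block), so that Igfbp4 rose against FBS in the blocked fit, also without any 1 library. MS− was lower than FBS by 0.44 on this scale in both fits. That difference did not pass with serum alone (adjusted p = 0.565). Igfbp4 fell in MS− in the blocked fit (adjusted p = 0.0170), a call lost without the second FBS library (0.0680), the first MS− library (0.0764) or the second (0.343). The 3 comparisons share libraries, so they are not independent of each other.

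Igfbp5, a matrix-bound binding protein of fibroblasts and bone cells (NM_012817, chr9:72003637-72016263 in rn4), was the 1 member that passed with serum as the only term. It was measured at 9.33 and 7.30 CPM in FBS, 1.83 and 4.52 CPM in MS−, and 1.80 and 0.92 CPM in MS+. These are 57 and 44 reads, 10 and 25 reads, and 10 and 5 reads. The groups did not overlap in CPM, but the first MS− library and the first MS+ library held the same number of reads.

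The mean of Igfbp5 was 8.31 ± 1.44 CPM in FBS, 3.17 ± 1.90 CPM in MS− and 1.36 ± 0.625 CPM in MS+, so the MS+ mean was 0.164 times the FBS mean. Igfbp5 fell by 2.00 from FBS to MS+ (SE 0.37, adjusted p = 0.0243, and 0.000242 with the block), with a 95% interval of −2.89 to −1.11 in the fit with serum as the only term. In that fit the call was lost without either FBS library (adjusted p = 0.127 and 0.0810) or either MS+ library (0.0865 and 0.113), whereas in the blocked fit it held without any 1 library (highest adjusted p 0.000344). From FBS to MS− the difference was −1.23 (adjusted p = 0.126). Igfbp5 fell there in the blocked fit (adjusted p = 0.0121), but not without the first FBS library (0.0588) or the first MS− library (0.422). MS− and MS+, neighbours in the order, differed by −0.77 and did not pass (adjusted p = 0.409, and 0.144 with the block). The difference was −0.01 in rat 1 and −1.53 in rat 2.

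Igfbp2 and Igfbp5 lie next to each other on chromosome 9, on opposite strands and 9428 bases apart in rn4. Igfbp2 (NM_013122, chr9:71966877-71994208), a binding protein that prefers IGF2, stood at 340 and 313 CPM in FBS, 341 and 420 CPM in MS−, and 327 and 472 CPM in MS+. The libraries of rat 1 lay within 327 to 341 CPM in all 3 sera, while those of rat 2 ranged from 313 to 472 CPM. No comparison of Igfbp2 passed in either fit, and the 95% interval between MS+ and FBS was −0.18 to 0.71 with serum as the only term.

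Igfbp3, the main carrier of IGFs in serum (NM_012588, chr14:87959153-87967171 in rn4), was measured at 22.8 and 32.5 CPM in FBS, 32.6 and 69.4 CPM in MS−, and 25.0 and 79.3 CPM in MS+. Both rat sera stood above FBS within each rat, with an MS+ to FBS ratio of 2.44 in rat 2 and 1.10 in rat 1. The difference from FBS was 0.79 for MS− and 0.70 for MS+, which did not pass with serum alone (adjusted p = 0.473 and 0.461). With the rat as a block Igfbp3 rose in both (adjusted p = 0.00658 and 0.0104). The blocked call for MS− was lost without the second FBS library (0.108), the first MS− library (0.105) or the second (0.116), and that for MS+ without the second FBS library (0.235) or the second MS+ library (0.223). MS+ and MS− differed by −0.09, with a 95% interval of −1.40 to 1.22.

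Igfbp1, a binding protein made chiefly by liver and decidua, lies 3863 bases from Igfbp3 on the opposite strand. Its single row, which overlaps no other, was at 0 reads in all 6 libraries, so its level lay under the floor of 0.491 to 0.551 CPM in each.

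Igfbp6, a binding protein with a strong preference for IGF2 (NM_013104, chr7:140885388-140890027 in rn4), was measured at 16.4 and 39.3 CPM in FBS, 16.3 and 54.6 CPM in MS−, and 15.3 and 65.0 CPM in MS+. All 3 libraries of rat 1 lay within 15.3 to 16.4 CPM and all 3 of rat 2 lay above them. Igfbp7, a secreted protein that binds IGFs weakly (NM_001013048, chr14:33010198-33070054 in rn4), stood at 349 and 492 CPM in FBS, 360 and 562 CPM in MS−, and 398 and 583 CPM in MS+. The Igfbp7 span overlaps a row of Polr2b, so its level is uncertain. Neither gene passed in any comparison of sera in either limma fit; the smallest adjusted p was that of Igfbp7 between MS+ and FBS (0.0532 with the block, a difference of 0.22).

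**Figure D2:**
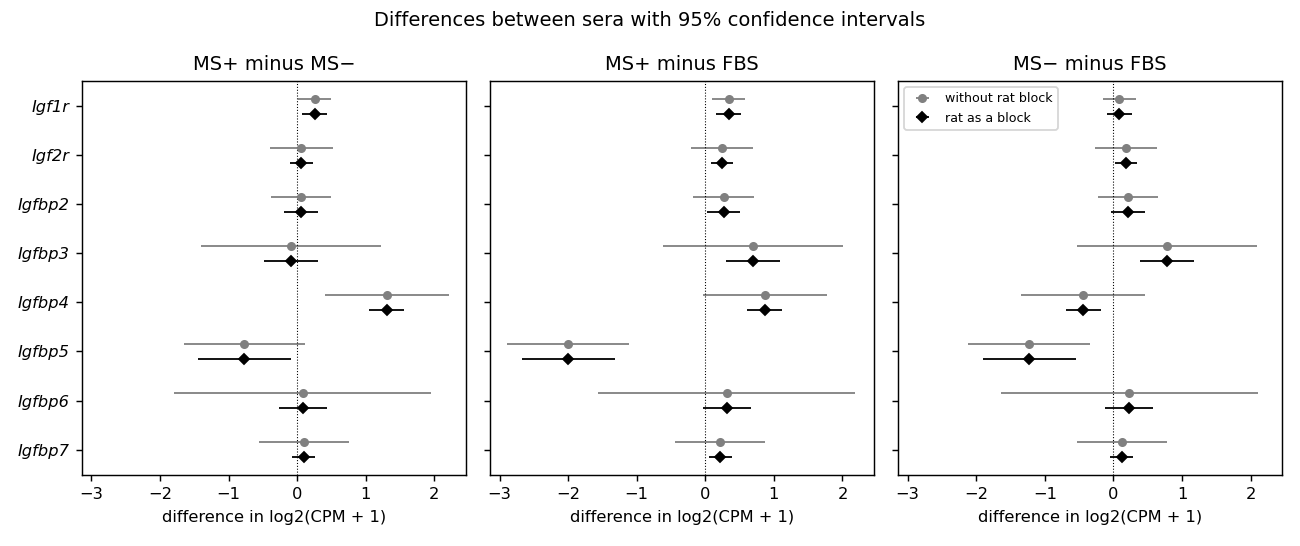
Differences between sera in log2(CPM + 1) for the 8 tested members, with 95% confidence intervals from limma, grey circles for the fit with serum as the only term and black diamonds for the fit with the rat as a block (6 libraries, 2 per serum). The point estimates are the same in both fits, and the black intervals are narrower for all 8 members. They narrow most for Igfbp3, Igfbp4, Igfbp6 and Igfbp7, the members whose cultures differed most between the rats.

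In counts, with serum as the only term, limma called 0 of the 8 tested members between MS+ and MS−, against 0.0204% of all 9820 features. It called 1 between MS+ and FBS (Igfbp5, which fell), against 9.61%, and 0 between MS− and FBS, against 4.81%. At an unadjusted p under 0.05 the members numbered 2, 2 and 1, against 14.7%, 27.5% and 21.1% of all features. The comparisons with a count of 0 also gave 0 members with edgeR, DESeq2 and limma-voom on the recovered reads. With the rat as a block, 1 member rose between MS+ and MS− (Igfbp4), against 10.1% of all features in both directions, 5.27% higher and 4.78% lower. In MS+ against FBS, 4 members rose (Igf1r, Igf2r, Igfbp3 and Igfbp4) and 1 fell (Igfbp5), against 28.2% of all features, 14.4% higher and 13.9% lower. In MS− against FBS, 1 rose (Igfbp3) and 2 fell (Igfbp4 and Igfbp5), against 20.5%, 10.8% higher and 9.63% lower.

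The 2 libraries of a group lay apart from those of the other, without overlap, for 3 of the 8 tested members in each comparison. These were Igf1r, Igfbp4 and Igfbp5 in MS+ against either control, and Igfbp2, Igfbp3 and Igfbp5 in MS− against FBS. For Igfbp2 and Igfbp3 the nearest FBS and MS− libraries were almost level. They stood at 340.5 and 340.8 CPM for Igfbp2, and at 32.50 and 32.56 CPM for Igfbp3. Over all features the share without overlap was 45.8%, 56.7% and 51.6% in the same order of comparisons as above.

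The median difference over the 8 tested members was 0.07 for MS+ against MS−, 0.29 for MS+ against FBS and 0.15 for MS− against FBS, beside medians of −0.0058, 0.00078 and 0.014 over all features. The thresholds of the study (unadjusted p under 0.05, at least 2-fold and a mean of at least 1 CPM) were also applied. They were applied to the limma fit used here with serum as the only term, while the study used limma-voom. The members called in this way were Igfbp4 between MS+ and MS− and Igfbp5 in both comparisons with FBS. Over all features that rule called 1.24%, 5.30% and 3.62% in MS+ against MS−, MS+ against FBS and MS− against FBS.

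The cultures of the 2 rats differed in several members whatever the serum. This comparison was added after the data were seen, it takes the rat term of the blocked limma fit, and its p-values describe the cultures of these 2 animals only. Of the 8 tested members, 4 were higher in rat 2 and 1 was lower past the threshold, against 5.47% of all features higher and 5.07% lower. Igfbp6 was higher in rat 2 by 1.64 (95% interval 1.35 to 1.92, adjusted p = 5.46e-07), with a ratio of 2.40 in FBS, 3.35 in MS− and 4.24 in MS+. Igfbp3 was higher by 1.06 (adjusted p = 0.000162), Igfbp7 by 0.56 (2.16e-05) and Igf2r by 0.37 (0.000891).

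Igfbp4 was lower in rat 2 by 0.77 (adjusted p = 5.70e-05), in the direction opposite to the other 4. Igf1r (0.11, adjusted p = 0.411), Igfbp2 (0.24, 0.138) and Igfbp5 (0.03, 0.958) did not pass. Across all features, 21.4% were higher in rat 2 in all 3 sera and 21.1% were lower in all 3. The skeletal muscle marker sum (981 to 1234 CPM in rat 1 and 1023 to 1267 CPM in rat 2) was mostly Acta1, at 766 to 1200 CPM. Acta1 was lower in rat 2 in every serum. For rat 1 and rat 2 it was at 1113 and 929 CPM in FBS, 912 and 766 CPM in MS−, and 1200 and 1026 CPM in MS+. Myh1 and Myh2, from the same list of 10, were instead higher in rat 2 in every serum. Myh1 was at 24.2 and 271 CPM in FBS, 47.6 and 209 CPM in MS−, and 19.6 and 88.3 CPM in MS+ for rat 1 and rat 2. Myh2 was at 7.53 and 57.7 CPM, 11.5 and 41.8 CPM, and 6.13 and 22.6 CPM in the same order. The part of these muscle genes in the differences between rats was not tested.

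**Figure D3:**
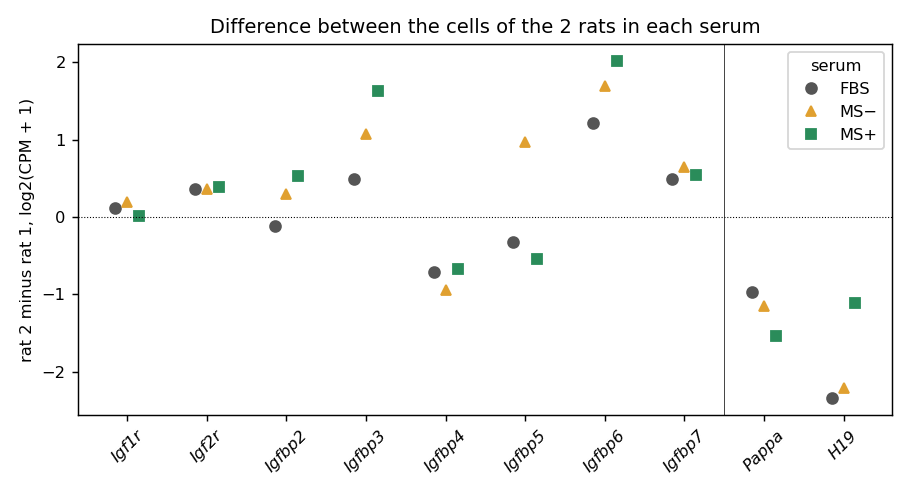
Difference between the cells of rat 2 and rat 1 in log2(CPM + 1), 1 point per gene and serum (FBS circles, MS− triangles, MS+ squares), for the 8 tested members and, right of the line, Pappa and H19. Igf1r (by little), Igf2r, Igfbp3, Igfbp6 and Igfbp7 lie above 0 in all 3 sera, and Igfbp4, Pappa and H19 lie below 0 in all 3.

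The other genes of the pathway came from a list of 54, of which 46 were in the table and 34 were tested. With serum as the only term 3 of the 34 rose between MS+ and FBS (Pappa, Socs2 and Foxo4) and none fell, against 9.61% of all features called. In the other comparisons 0 passed, against 0.0204% of all features for MS+ against MS− and 4.81% for MS− against FBS. At an unadjusted p under 0.05 the numbers were 6 for MS+ against MS−, 9 for MS+ against FBS and 9 for MS− against FBS, beside the shares of all features at that threshold given above (14.7%, 27.5% and 21.1%). In the comparison of MS+ with MS−, edgeR, DESeq2 and limma-voom also gave 0. In that of MS− with FBS, DESeq2 gave 2 and the other tools gave 0. With the rat as a block, 1 rose and 4 fell in MS+ against MS−, 4 rose and 6 fell in MS+ against FBS, and 6 rose and 3 fell in MS− against FBS, out of the 34 tested and beside 10.1%, 28.2% and 20.5% of all features in that fit.

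Pappa, the protease best known for cutting IGFBP4 (NM_001107939, chr5:81826649-82096446 in rn4), showed the widest difference of the list. It was measured at 38.0 and 18.9 CPM in FBS, 157 and 70.3 CPM in MS−, and 297 and 102 CPM in MS+. Both rat sera lay above FBS without overlap, MS− and MS+ overlapped, and within each rat the order was FBS, MS−, MS+.

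Pappa rose in MS+ against FBS by 2.66 (SE 0.59, adjusted p = 0.0380, and 4.30e-10 with the block), with a mean ratio of 7.02. In the fit with serum as the only term this call was lost without any 1 FBS or MS+ library (adjusted p = 0.0519 to 0.165), while it held in the blocked fit. In MS− the difference from FBS was 1.93 (adjusted p = 0.125), and Pappa rose there in the blocked fit (adjusted p = 2.76e-08). Between MS+ and MS− the difference was 0.73 (adjusted p = 0.628), and Pappa rose in the blocked fit (adjusted p = 0.00138), though not without the first MS− library (0.107). Among the 8 tested members and the tested proteases Pappa and Htra1, Pappa and Igfbp4 thus rose in MS+ against MS− in the blocked fit. Of all features, 5.27% rose there. Both genes were lower in rat 2 than in rat 1 in every serum, as were 21.1% of all features. A link between Pappa and Igfbp4 was not tested. Between MS− and FBS they stood in opposite directions, with Pappa up by 1.93 and Igfbp4 at −0.44.

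Htra1, a secreted protease that also cuts binding proteins, was at 2045 and 2122 CPM in FBS, 1578 and 1572 CPM in MS−, and 1675 and 1741 CPM in MS+. FBS lay above both rat sera without overlap. The difference from FBS was −0.40 for MS− and −0.29 for MS+, which did not pass with serum alone (adjusted p = 0.0879 and 0.134), and Htra1 fell in both in the blocked fit (adjusted p = 0.00292 and 0.0187). Stc1, an inhibitor of PAPPA, was too low to be tested, with 3 to 29 reads per library. It stood at 0.65 and 0.83 CPM in FBS, 0.55 and 3.25 CPM in MS−, and 0.72 and 5.32 CPM in MS+. Stc2, of the same pathway list, was also too low to be tested and was instead highest in FBS. It held 7 and 1 reads in FBS, 1 and 0 reads in MS−, and 2 and 0 reads in MS+.

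**Figure D4:**
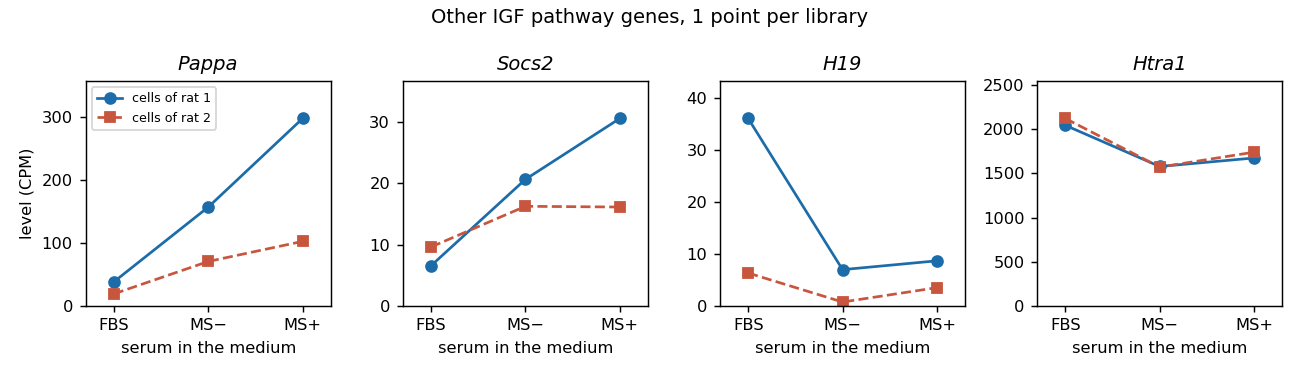
Level (CPM, linear axes from 0) of Pappa, Socs2, H19 and Htra1 in the 3 sera, 1 point per library, with lines joining the cells of the same rat. Pappa climbs from FBS to MS− to MS+ in both rats, Socs2 is lowest in FBS in both, and H19 and Htra1 are highest in FBS in both.

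Socs2, an inhibitor of growth hormone signalling (NM_058208), was at 6.55 and 9.62 CPM in FBS, 20.7 and 16.3 CPM in MS−, and 30.6 and 16.2 CPM in MS+. Both rat sera lay above FBS. Socs2 rose in MS+ against FBS by 1.38 (adjusted p = 0.0437, and 0.000498 with the block), with a ratio of 4.68 in rat 1 and 1.68 in rat 2. Without any 1 library the adjusted p with serum as the only term was 0.0503 to 0.187, and in the blocked fit the call held. It rose in MS− by 1.11 in the blocked fit alone (adjusted p = 0.111, and 0.00365 with the block), and that call was lost without the first FBS library (0.0761) or either MS− library (0.0990 and 0.0583).

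H19, the imprinted noncoding RNA next to Igf2, was at 36.0 and 6.30 CPM in FBS, 6.95 and 0.72 CPM in MS−, and 8.65 and 3.49 CPM in MS+. Within each rat the level was highest in FBS, but the groups overlapped, since rat 1 in MS− and MS+ lay above rat 2 in FBS. The difference was −2.15 for MS− against FBS and −1.32 for MS+ against FBS (adjusted p = 0.249 and 0.410), and H19 fell in both in the blocked fit (3.53e-05 and 0.00184; the latter was 0.0666 without the first MS+ library). Its row contains Mir675, so reads shared with that row were not counted.

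Among the genes downstream of the receptor, the PI3 kinase and AKT group had 17 tested of 18 listed. Foxo4, a forkhead factor that AKT inactivates, was at 18.2 and 18.1 CPM in FBS, 25.6 and 24.4 CPM in MS−, and 26.7 and 29.4 CPM in MS+. It rose in MS+ against FBS by 0.60 (adjusted p = 0.0352, and 0.00486 with the block). Without any 1 library the adjusted p with serum as the only term was 0.0676 to 0.145, while the blocked call held. In the blocked fit Foxo4 and Pik3r1 also rose in MS− against FBS (Foxo4 not without any 1 FBS or MS− library, adjusted p = 0.109 to 0.355), Pik3r1 rose and Akt1, Akt2 and Rptor fell in MS+ against FBS, and Foxo3 (−0.64, adjusted p = 0.0331) and Tsc1 (−0.51, 0.0229) fell in MS+ against MS−. In that fit 2 of the 17 fell in MS+ against MS−, 2 rose and 3 fell in MS+ against FBS, and 2 rose in MS− against FBS. The shares of all features were 10.1%, 28.2% and 20.5%. Only Foxo4 passed with serum as the only term (9.61% of all features). Pik3r1 in MS+ was 1.84 times FBS in rat 1 and 1.09 times in rat 2, with overlapping groups. Blocked fits without 1 library are given here for Foxo4 only. The differences of the whole group between MS+ and MS− ranged from −0.64 to 0.16 with a median of −0.08.

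Of the 8 tested adaptors that couple the receptor to this pathway, none passed with serum as the only term. Of all features, 0.0204% passed there in MS+ against MS−, 9.61% in MS+ against FBS and 4.81% in MS− against FBS. In the blocked fit Gab1 and Grb14 fell in MS+ against MS−, Grb10, an adaptor that restrains IGF and insulin signalling, fell in both rat sera against FBS, and Grb14 and Shc1 rose in MS− against FBS. Thus 2 adaptors fell in MS+ against MS−, 1 fell in MS+ against FBS, and 2 rose and 1 fell in MS− against FBS. The shares of all features in that fit were 10.1%, 28.2% and 20.5%. Shc1 in MS− was 1.65 times FBS in rat 1 and 1.14 times in rat 2. Its row overlaps another Shc1 row, so its level is uncertain. Fits of the adaptors without 1 library are not given here. Insr, the insulin receptor, was at 17.0 and 21.6 CPM in FBS, 19.8 and 24.2 CPM in MS−, and 19.6 and 16.3 CPM in MS+. It passed in no comparison in either fit.

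**Figure D5:**
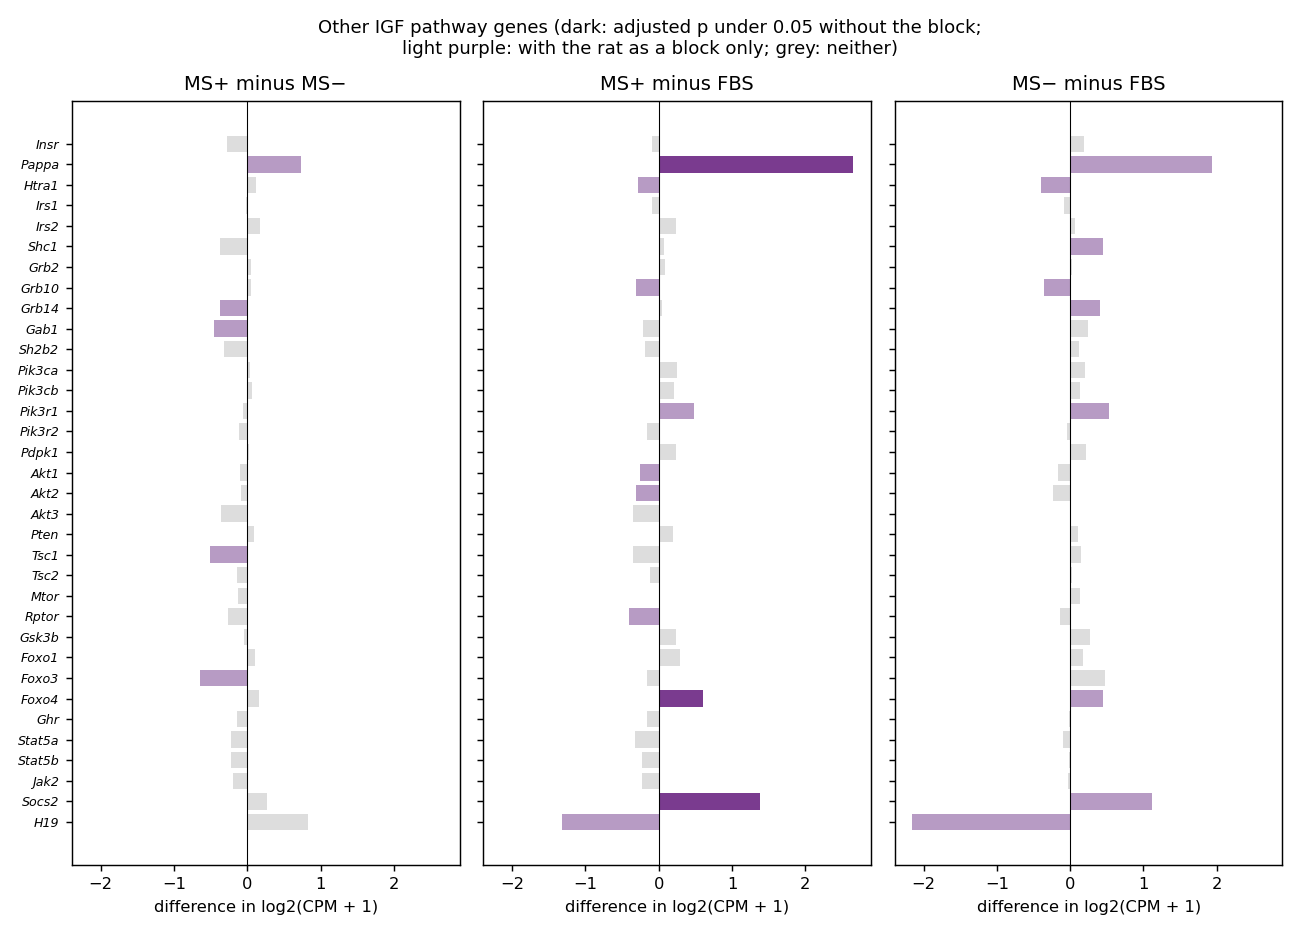
Differences between sera in log2(CPM + 1) for the 34 tested pathway genes that are not members, with dark bars for an adjusted p under 0.05 with serum as the only term, light purple bars for genes that passed only with the rat as a block, and grey bars for neither. The dark bars are Pappa, Socs2 and Foxo4 between MS+ and FBS, and the longest bars are those of Pappa and H19.

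The genes whose levels followed Igfbp4 most closely over the 6 libraries, by Pearson's r of log2(CPM + 1), were Scamp2 (0.989), Nrcam (0.989) and Chmp7 (0.983). For Igfbp5 they were Ola1 (0.986), Tra2b (0.984) and Ptpru (0.984). These were the 3 highest of all tested features for each gene, the 6 libraries share rats and sera, and no test is attached to them. Nrcam was low, at 1.15 and 0.66 CPM in FBS, 1.10 and 0.36 CPM in MS−, and 2.52 and 1.65 CPM in MS+, so it was tested only because of its MS+ level, and its second MS− library lay under the floor of detection. Ptpru was at 9.17 and 6.47 CPM in FBS, 2.93 and 4.34 CPM in MS−, and 3.06 and 1.84 CPM in MS+, while Ola1 stayed within 56.5 to 64.8 CPM.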

How the data were processed

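A company enriched mRNA of the RASFLs with oligo(dT) beads, sequenced it for the authors and filtered the reads. Per the submitters' processing notes and the study's methods, the authors aligned them to rn4 with Bowtie2 2.1.0 and counted them per transcript with HTSeq 0.5.4p3 (intersection-nonempty mode). Strand use was not stated. The values the authors deposited are these counts as a normalized signal in CPM, after TMM scaling in edgeR (17221 rows). HTSeq drops reads shared by overlapping transcripts; 906 rows overlap a row of the same symbol and 1438 one of another symbol, and are uncertain. Whole reads were recovered for 100% of the values (tolerance 1e-06 reads), and edgeR on them called 3 features for MS+ against MS−, 944 for MS+ against FBS and 464 for MS− against FBS. The table has no exons, so levels were not compared between genes.

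Features with at least 1 CPM in both libraries of at least 1 group (9820) were tested with limma 3.58.1 under R 4.3.3 (two-sided, lmFit and eBayes with a trend) on log2(CPM + 1), a scale that understates changes of low genes. Adjusted p-values are Benjamini-Hochberg over all features. The fit held all 6 libraries with serum as the only term, since the methods of the study state no block. The sample descriptions carry the tag RA1 or RA2 in every group, which was read as the rat that supplied the cells and taken to pair the libraries. The deviations of the rats correlated across features by 0.616 (FBS and MS−), 0.494 (FBS and MS+) and 0.590 (MS− and MS+), and each test was repeated with the rat as a blocking term. Replicate libraries were not copies of 1 library (chi-square per degree of freedom 13.6 to 15.1). Alternatives were edgeR 4.0.16 and DESeq2 1.42.0 on recovered reads, limma-voom, other scalings, a pseudocount of 0.1 CPM, no filter, and leaving out each library. An exact permutation test of 2 against 2 libraries cannot go below p = 0.333 and was not used. Only the limma fit with serum as the only term was tested on simulated counts, for MS+ against MS−. The blocked fits, edgeR, DESeq2 and limma-voom were not. The simulated counts held no difference between rats, so that check does not cover the spread that the rats add here. Promoters are RefSeq sequences on GRCr8; coordinates of rows are rn4, 1-based.

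The members and lists were chosen with earlier results of these data known. The rule for named genes took the members, the pathway genes that passed with serum as the only term, Igfbp1, Insr, Pappa and H19, and the 3 features most like the member with the largest rise and the one with the largest fall. Htra1, Stc1, Stc2, Polr2b and the pathway genes that passed only in the blocked fit were named after their values were seen.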

Additional observations from a re-analysis of the deposited data

How the results depend on the processing

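With the rat as a block, the count of members called went from 0 to 1 between MS+ and MS−, from 1 to 5 between MS+ and FBS, and from 0 to 3 between MS− and FBS in limma. It went to 1, 6 and 3 in edgeR with the same block, where Igfbp6 also passed between MS+ and FBS (adjusted p = 0.0473). The counts of other pathway genes went from 0 to 5, from 3 to 10 and from 0 to 9 with the block in limma, and to 5, 9 and 9 in edgeR with the block. Both fits with the block rest on the tags RA1 and RA2 in the labels, read as the rat that supplied the cells. Without the filter on low values, 0 members (Igfbp5, adjusted p = 0.0509) and 0 pathway genes passed between MS+ and FBS. Limma-voom called 1 pathway gene between MS+ and FBS, and DESeq2 called 2 between MS− and FBS. The cause of these changes was not tested.

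Leaving out 1 library without the block gave 0 to 1 members and 0 to 1 pathway genes between MS+ and FBS, and 0 members in the other comparisons. The members called with the block then numbered 1 to 3 between MS+ and MS−, 3 to 6 between MS+ and FBS, and 0 to 4 between MS− and FBS, with the fewest without the second FBS or second MS+ library (3, MS+ against FBS) and without the first MS− library (0, MS− against FBS). These blocked alternatives were chosen after seeing the data.

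Of 360 values of members under the alternatives, 314 kept their direction and side of the threshold, 17 passed where the reported value had not, 5 no longer passed and 24 reversed. Igfbp3 between MS+ and MS− was 0.0416 in edgeR and 0.0392 in DESeq2. The other reversals arose by leaving out 1 library without the block, which by construction leaves 1 group with cells of a single rat. The ranges were −0.0146 to 0.18 for Igf1r (MS− against FBS), −0.13 to 0.25 for Igf2r (MS+ against MS−), −2.79e-05 to 0.37 for Igf2r (MS− against FBS), −0.21 to 0.32 for Igfbp2 (MS+ against MS−), and −0.91 to 0.0322 for Igfbp4 (MS− against FBS). For Igfbp3 they were −0.90 to 0.72 (MS+ against MS−) and −0.12 to 1.51 (MS+ against FBS). In the order MS+ against MS−, MS+ against FBS and MS− against FBS, they were −0.93 to 1.09, −0.70 to 1.32 and −0.61 to 1.07 for Igfbp6, and −0.22 to 0.42, −0.0573 to 0.49 and −0.20 to 0.44 for Igfbp7. In such fits the lone library was assumed to vary like the other groups.

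With 2 sources of cells, the p-values with serum as the only term measure the spread between 2 cultures. In the blocked fits the rat term takes that spread out, so those p-values measure only what is left after it. Limma also draws the spread of each gene towards that of other features at a like level. The spread behind a p-value is therefore not that of the gene alone, least so in the blocked fit. The p-values say nothing of how other rats would vary, and the labels give no number of serum donors. Depth limits Igfbp5, at 5 to 57 reads per library, more than the other tested members.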
